A study of Mus musculus with 6 samples.

Results

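The RUNX and Ikaros families are transcription factors that set blood cell identity. Their 8 genes examined here, taken by symbol from the 23420 genes in the files, are the RUNX DNA-binding subunits Runx1, Runx2 and Runx3, their common partner Cbfb, and the Ikaros family members Ikzf1 (Ikaros), Ikzf2 (Helios), Ikzf3 (Aiolos) and Ikzf5 (Pegasus). B cells were isolated with beads from spleens of 7 to 11 week old WT BALB/c mice. They were kept for 4 hours at 10 M cells per mL, either with 10 μg/mL of CpG ODN 1826, a synthetic DNA that activates TLR9, or without it, before mRNA sequencing. The 3 stimulated and 3 unstimulated samples, from 3 mice, are numbered 1 to 3 in each group, with replicates 1 and 2 from females and replicate 3 from a male. No sample carried a transgene or deletion. The comparison asks which genes TLR9 stimulation alone raises or lowers in B cells.

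RUNX proteins bind DNA through the Runt domain, and CBFβ, the product of Cbfb, strengthens that binding without touching DNA itself. Depending on partners they activate or repress, and Runx1 and Runx3 are the forms best known in lymphocytes. Ikaros and Aiolos are zinc finger proteins that pair with each other and recruit the NuRD chromatin remodeling complex. In the B lineage they drive the step from large to small pre-B cells and raise the threshold for activation of mature B cells. In human B cell lines RUNX3 is known to repress RUNX1 through RUNX sites at the distal of the 2 promoters of RUNX1. Neither protein nor binding to DNA was measured in these samples.

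Promoter windows from RefSeq (GRCm38.p6, 250 bases before to 50 bases after each annotated start) were held for 6 of the 8 genes: Runx1, Runx2, Runx3, Cbfb, Ikzf1 and Ikzf5. The RUNX motif TGTGGT was searched on both strands. It was present in 1 window of each RUNX gene and in none of Cbfb, Ikzf1 or Ikzf5. Runx1 and Runx3 had 2 windows each and Runx2 had 1. Counted per window and not per gene, 16.8% of all 32851 windows had it. In Runx1, Runx2 and Runx3 it occurred as a pair, with starts 8 bases apart. The 3 stretches below are shown because the genes that moved most in opposite directions, Runx1 and Runx3, have this pair in common. They read along the strand of the gene, and capitals mark ACCACA, which is TGTGGT on the opposite strand.
Runx1, chr16:92826025-92826054, minus strand: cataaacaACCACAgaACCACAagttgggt
Runx2, chr17:44814583-44814612, minus strand: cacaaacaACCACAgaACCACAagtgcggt
Runx3, chr4:135120503-135120532, plus strand: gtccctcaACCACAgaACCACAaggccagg
The pair began 28 and 36 bases after the start in Runx1 and 23 and 31 bases after it in Runx2, and at positions -134 and -126 in Runx3. Runx2 had a further match at -80. In Runx1 and Runx3 it lay in the window of the distal promoter, and the windows of their proximal promoters held no TGTGGT. Such a pair on one strand was in 7 windows, or 0.0213% of all. The others belonged to Gm16225, whose window overlaps that of Runx3 on the opposite strand, and to Gm12236, Gm15462 and Olfr24. The spacing was chosen for this count after the matches were seen. Of other motifs, TGCGGT, a second RUNX form, was in the window of Runx2 (6.45% of all windows), and TGGGAA, an Ikaros motif, in that of Runx3 at -154 (25.6%). The AP-1 motif TGANTCA (7.81% of all windows) and the NF-κB consensus (8.46%) were in none of the 9 windows of these genes. The Ikaros motif can overlap the NF-κB consensus, and a match is a description of the letters only. The values below are per gene, so transcripts from the distal and proximal promoters were not separated.

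The values are log2 CPM, as the authors deposited them. Genes without reads most often have the value -5.15, which corresponds to 17.8 M counted reads, and on this scale 10 reads are -0.76 and 3 reads, the limit of detection used here, are -2.34. The depth of single samples cannot be read from the values, because quantile normalization gives them nearly the same distribution. Groups were compared with limma, and FDR is its p value after Benjamini-Hochberg adjustment over 11233 genes, those that exceeded the value of 10 reads in 3 or more samples. With 3 mice in all, replicate 3 of both groups came from the same male, while the labels do not say whether replicates 1 and 2 were matched by mouse. The p values given are from the fit without pairing. All 8 B cell markers were present, with a summed level of 2950 to 3370 CPM in CpG-stimulated and 3950 to 4570 CPM in unstimulated samples. Of 6 erythroid markers, Hba-a1 and Hbb-b1 had the value of a gene without reads in every sample. The globin entry Beta-s was at 8.46 to 12.16 log2 CPM with CpG and 8.51 to 11.76 without. Alas2 was at 4.70 to 8.07 and 4.86 to 8.17 log2 CPM. The whole list summed to 384 to 4910 CPM and 404 to 3850 CPM, highest in replicate 2 of both groups. Without replicate 2 the calls of Runx1, Runx3, Cbfb, Ikzf1 and Ikzf3 given below were kept. In bulk samples a lower value can mean fewer expressing cells or less RNA per cell, and these cannot be told apart.

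Of the 8 genes, 6 passed the filter, and Runx2 and Ikzf2 did not. Runx3 and Cbfb were higher with CpG, against 37.6% of all genes tested that were higher at an FDR under 0.05. Runx1, Ikzf1, Ikzf3 and Ikzf5 were lower, against 36.7%. At a log2FC over 1, Runx3 passed (15.8% of all genes tested), and at a log2FC under -1, Runx1 and Ikzf3 passed (15.3%). The groups did not overlap for any of the 6, as for 77.7% of tested genes, so a lack of overlap does not set these genes apart. The sizes and directions differed among them, as the plot of all samples shows.

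**Figure D1:**
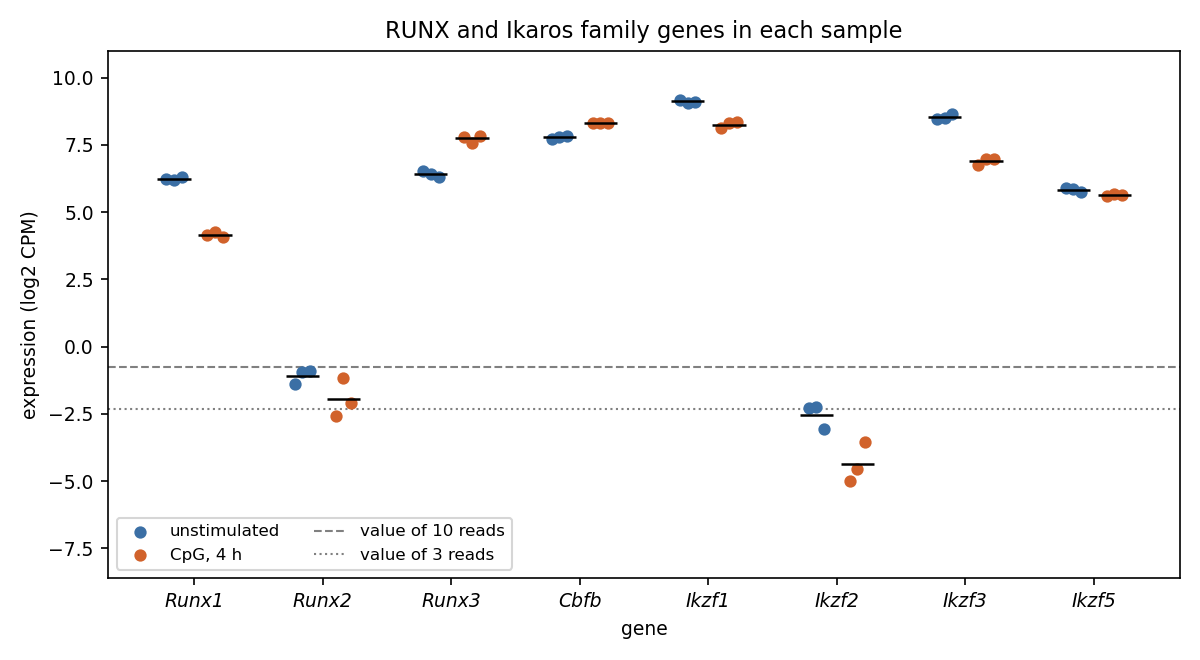
Expression of the 8 genes in each sample (y axis, log2 CPM), with 1 point per sample, black lines for group means, and dashed and dotted lines at the values of 10 and 3 reads. Runx1, Ikzf1 and Ikzf3 lie lower and Runx3 and Cbfb higher in all 3 CpG-stimulated samples, and Runx2 and Ikzf2 lie under the value of 10 reads in all 6 samples.

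Runx1, on chromosome 16 of GRCm38 from 92601466 to 92826149, encodes a RUNX subunit needed to form blood stem cells and B cell progenitors. Its expression was 6.23, 6.21 and 6.31 log2 CPM in unstimulated samples and 4.14, 4.26 and 4.09 in CpG-stimulated samples. Each group was tight, and every stimulated sample was far below every unstimulated one. The log2FC was -2.08 (standard error 0.08, 95% confidence interval -2.25 to -1.91, FDR = 2.15e-08), a 4.24-fold decrease. Of the 11233 genes tested, 413 fell further. Runx1 overlaps exons of the antisense gene Gm26626, for which no value was analysed here.

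Runx3, on chromosome 4 from 135120652 to 135177990, encodes the RUNX subunit known for its part in cytotoxic T cells and, with Runx2, in the TGF-β-driven switch to IgA in B cells. It moved the other way, from 6.54, 6.41 and 6.31 log2 CPM without CpG to 7.81, 7.58 and 7.83 with it. The lowest stimulated sample, replicate 2, was still above the highest unstimulated one. Its log2FC was 1.32 (standard error 0.09, interval 1.13 to 1.51, FDR = 3.73e-07), a rise of 2.5-fold, and 1087 tested genes rose further. T and NK cells also express Runx3, so their markers were examined in the same samples. Of the 9 T cell markers, 7 were under 10 reads' worth on average, and those above were Lck and Cd5, which B cells can express too. The whole T cell list summed to 126 to 142 CPM with CpG and 72.2 to 92.9 CPM without, most of it from Lck at 6.95 to 7.14 and 6.14 to 6.51 log2 CPM. The CD3 chains, Cd4, Cd8a and Cd8b1 together reached 0.5 to 0.632 CPM and 0.407 to 0.604 CPM, with none at 10 reads' worth on average. The 5 NK cell markers summed to 0.782 to 1.38 CPM with CpG and 0.142 to 0.237 CPM without, where Klrb1c alone rose above the limit of detection. Their part in the Runx3 value was not tested.

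Cbfb, on chromosome 8 from 105170674 to 105217989, encodes the partner that all RUNX subunits share. It read 7.71, 7.78 and 7.85 log2 CPM in unstimulated and 8.30, 8.31 and 8.31 in stimulated samples. The stimulated samples were almost identical. The log2FC of 0.53 (standard error 0.06, FDR = 1.66e-05) was a 1.44-fold rise, smaller than that of Runx3, and the 95% intervals of both (0.40 to 0.66 for Cbfb) did not overlap.

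Runx2, known as the master regulator of bone-forming cells, was near the limit of detection. It stood at -1.38, -0.94 and -0.92 log2 CPM in unstimulated and -2.58, -1.18 and -2.10 in stimulated samples, the equivalent of 6.3 to 8.9 reads and 2.5 to 7.4 reads. The groups overlapped. With no filter on low values the difference of -0.87 had an FDR of 0.268, so no change was detected at these low values. Plasmacytoid dendritic cells express Runx2, and of their 4 markers Siglech was under the limit of detection on average. The list summed to 1840 to 1990 CPM with and 781 to 849 CPM without CpG, nearly all from Irf8 and Tcf4, which B cells also express. Irf8 was higher with CpG (10.76 to 10.88 against 9.09 to 9.24 log2 CPM), while Tcf4 (6.64 to 6.68 against 7.88 to 7.93) and Ccr9 (-0.61 to 0.11 against 0.48 to 0.93) were lower in every stimulated sample. Their part in the Runx2 value was not tested. Runx2 shares exons with the antisense gene Runx2os1.

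The opposite changes of Runx1 and Runx3 shifted the balance between them, described here without a test. Runx1 minus Runx3 within a sample was -0.31, -0.20 and 0.00 log2 CPM without CpG and -3.67, -3.32 and -3.74 with it. The mean moved from -0.17 ± 0.16 to -3.58 ± 0.22 (SD, n = 3 in each group), a change of -3.41. Against the common partner, Runx1 minus Cbfb changed by -2.61 and Runx3 minus Cbfb by 0.79, with no overlap between the groups in either. Library scaling cancels in such a difference, as does gene length in its change. Quantile normalization is not such a scaling, and its effect need not cancel.

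**Figure D2:**
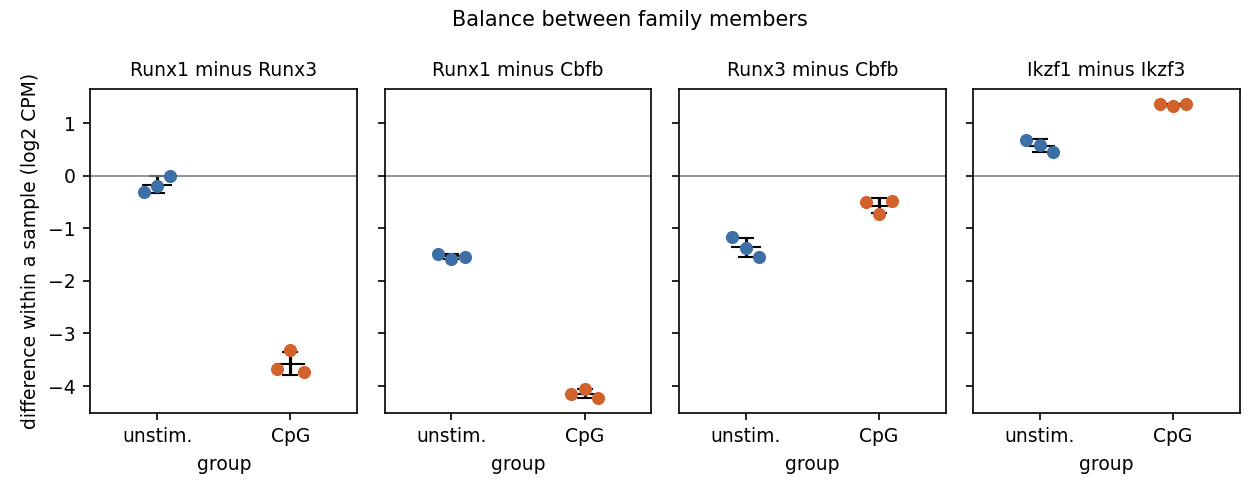
Difference between family members within each sample (y axis, log2 CPM of the first gene minus that of the second), with 1 point per sample and the mean ± SD of each group. Runx1 minus Runx3 drops from about 0 to between -3.74 and -3.32 with CpG, while Runx3 minus Cbfb and Ikzf1 minus Ikzf3 go up.

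Levels of different genes were compared per kb of exon. Over the exons of coding transcripts in GENCODE M21, unstimulated cells had 20.5 CPM per kb of Runx3 and 10.2 of Runx1, and stimulated cells 51.2 and 2.4. Cbfb was above both, at 75.3 CPM per kb without and 109 with CpG. In stimulated cells Cbfb led the order, followed by Ikzf1 (54.8) and Runx3 (51.2), whose samples overlapped, then Ikzf3 (32.8), Ikzf5 (10.7) and Runx1. In unstimulated cells Ikzf3 (102) and Ikzf1 (99.2), which overlapped between samples, were above Cbfb, and Runx3, Ikzf5 (12.2) and Runx1 followed. Runx2 (0.0667 CPM per kb) and Ikzf2 (0.0181) were last. Over all annotated exons Ikzf3 had 42.5 CPM per kb in unstimulated cells and came after Ikzf1 (95.9) and Cbfb (63.1), and the rest of the order was as before.

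Ikzf1, on chromosome 11 from 11685003 to 11772926, encodes Ikaros, the founding member of its family and a tumor suppressor of the B lineage. It was 9.17, 9.07 and 9.11 log2 CPM in unstimulated and 8.12, 8.31 and 8.34 in stimulated samples. All stimulated samples were lower, with replicate 1 the lowest. The log2FC was -0.86 (standard error 0.07, interval -1.02 to -0.70, FDR = 2.15e-06), a 1.81-fold decrease that did not reach a log2FC of -1.

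Ikzf3, on the same chromosome from 98464902 to 98546031, encodes Aiolos, which is highest in mature B cells and dimerizes with Ikaros. It fell further, from 8.48, 8.49 and 8.65 log2 CPM to 6.76, 6.99 and 6.98. The gap between the groups was well over the spread within either. With a log2FC of -1.63 (standard error 0.08, interval -1.81 to -1.46, FDR = 7.50e-08), the decrease was 3.1-fold, and its interval did not overlap that of Ikzf1. Ikzf1 minus Ikzf3 within a sample accordingly went from 0.69, 0.58 and 0.45 to 1.36, 1.33 and 1.36 log2 CPM, a change of 0.78.

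Ikzf5, on chromosome 7 from 131388652 to 131410521, encodes Pegasus, a distant family member with a DNA preference of its own. The samples read 5.89, 5.86 and 5.76 log2 CPM without and 5.61, 5.68 and 5.65 with CpG, so the groups were apart by less than 0.1. The log2FC of -0.19 (standard error 0.07, interval -0.34 to -0.04, FDR = 0.0273) was the smallest of the 6. The call was lost without CpG-stimulated replicate 1 or 3, without unstimulated replicate 1 or 2, and without replicate 2 of both groups (FDR 0.0615 to 0.0919, log2FC -0.20 to -0.16). It was kept without CpG-stimulated replicate 2 (log2FC -0.21, FDR = 0.0242) and without unstimulated replicate 3 (log2FC -0.23, FDR = 0.0247). Its exons overlap those of Pstk on the opposite strand, which was at 1.76 log2 CPM with and 1.80 without CpG.

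Ikzf2, which encodes Helios and is known from regulatory T cells, was not detected above 3.3 reads' worth. Values were -2.28, -2.23 and -3.08 log2 CPM in unstimulated and -5.01, -4.57 and -3.55 in stimulated samples. All stimulated samples were under the limit of detection and the unstimulated ones at or under 3.3 reads, so no fold is given, although the gene passed with no filter on low values (FDR = 0.0457). Ikzf4 (Eos), the remaining Ikaros family gene, was low as well, at 0.86, 0.40 and -0.16 log2 CPM without and -0.15, -1.76 and -0.68 with CpG, and the groups overlapped. Its log2FC was -1.23 (standard error 0.46, FDR = 0.0335). The call was lost with no filter (FDR = 0.191) or no variance trend (0.0507), without unstimulated replicate 1 or 2 (0.131 and 0.0793), without CpG-stimulated replicate 2 (log2FC -0.78, FDR = 0.0938), and without replicate 2 of both groups (-0.76, 0.184). On the log2(CPM + 1) scale, which shrinks the change of low genes, the log2FC was -0.54 (FDR = 0.0272).

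**Figure D3:**
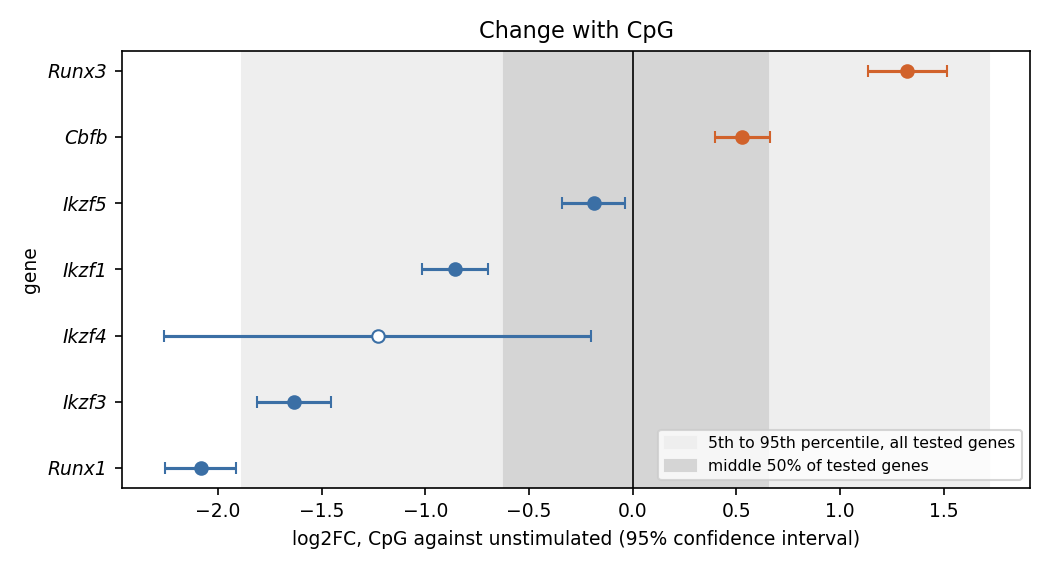
Log2FC of CpG-stimulated against unstimulated samples (x axis) with its 95% confidence interval for the 6 genes that passed the filter (filled) and Ikzf4 (open), over the 5th to 95th percentile (light) and middle 50% (dark) of all tested genes. Runx1 is below the 5th percentile of -1.88, and Cbfb and Ikzf5 are within the middle 50%.

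Over the 6 samples, the genes whose values followed Runx3 most closely (smallest Euclidean distance of values centered on each gene's mean) were Phf10 (0.09), Itgal (0.10) and Utp6 (0.10), with a log2FC of 1.32, 1.30 and 1.32. Phf10 encodes a chromatin remodeler subunit, Itgal the α chain of the integrin LFA-1, and Utp6 a ribosome assembly factor. For Runx1 they were Kctd12 (0.10), Irs2 (0.15), an adaptor of insulin and IL-4 receptors, and Abca1 (0.15), a cholesterol exporter, with a log2FC of -2.01, -2.10 and -2.02. With 2 conditions, such closeness mostly reflects an equal log2FC.

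Genes of partners, regulators and targets were described by lists, with no test of a list against other genes. Over all tested genes 37.6% rose and 36.7% fell, at a median log2FC of 0.0033, and the counts of each list are to be read beside these shares. Of 15 listed cofactors of RUNX proteins, 14 were tested, 3 rose and 10 fell, at a median of -0.51. Hipk1, a kinase that phosphorylates RUNX proteins and their coactivators, fell by 1.18 on the log2 scale (FDR = 8.84e-08). The histone acetyltransferases Ep300 and Crebbp, which acetylate RUNX1 and are recruited by it, had a log2FC of -1.17 (FDR = 3.42e-07) and -1.12 (FDR = 3.77e-07). Prmt1, which methylates arginines of RUNX1, rose by 1.35 (FDR = 4.23e-08). Suv39h1, a histone methyltransferase, rose by 0.45 (FDR = 0.000125), and Tle3, a Groucho corepressor, had a log2FC of 0.29 (FDR = 0.0211) that did not pass with no filter (FDR = 0.162), with no variance trend (0.0664), or without CpG-stimulated replicate 2 or 3 or unstimulated replicate 1 (0.0558 to 0.0875). With the replicate number as a block, Tle1 passed as well (log2FC 0.20, FDR = 0.0373, from 0.0604). Of 4 further relatives, Cbfa2t3, a corepressor of the ETO family, rose by 0.37 (FDR = 0.00876, and 0.0582 with no filter) and Cbfa2t2 fell by 0.40 (FDR = 0.00138), while Runx1t1 was not tested.

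TGF-β signaling acts through SMAD proteins that bind RUNX factors. Of the 11 genes listed for it, all were tested, 2 rose and 9 fell, at a median of -0.74, against 37.6% and 36.7% of all tested genes. Smad3, which carries the signal to the nucleus, was 7.89, 7.39 and 7.22 log2 CPM without and 6.58, 6.57 and 6.21 with CpG (log2FC -1.05, standard error 0.16, FDR = 0.000182). Tgfb1, the ligand, had a log2FC of -1.02 (FDR = 3.21e-05). Ski, a SMAD corepressor, fell by 0.92 (FDR = 7.13e-07), whereas its relative Skil rose by 0.36 (FDR = 0.000342) and Smad2 by 0.30 (FDR = 0.00203).

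The NuRD complex, through which Ikaros and Aiolos act on chromatin, had genes that moved both ways. Of its 13 genes 7 rose, 3 fell and 3 did not pass, at a median of 0.16, against 37.6% higher and 36.7% lower over all tested genes. Hdac2, a catalytic histone deacetylase, rose by 1.22 (FDR = 1.17e-07), Rbbp7, a histone-binding subunit, by 0.84 (FDR = 1.96e-06), and Mta1 by 0.66 (FDR = 6.34e-05). Mta3, the alternative subunit in place of Mta1 and a partner of BCL6 in germinal center B cells, fell by 1.88 (FDR = 4.62e-07). Gatad2b and Mbd2 had a log2FC of -0.94 (FDR = 4.43e-07) and -0.83 (FDR = 4.89e-06). Chd4, the ATPase of the complex, was 10.26 log2 CPM with and 10.16 without CpG and did not pass (FDR = 0.338). Among 7 other corepressors, 4 rose and 2 fell, at a median of 0.17, and 2 rose without CpG-stimulated replicate 3 or without unstimulated replicate 2. The class IIa deacetylase Hdac5 fell by 2.49 (FDR = 4.76e-08), and Ctbp1, a corepressor that binds Ikaros, had a log2FC of -0.27 (FDR = 0.00164). Ctbp2, at low levels, rose by 1.46 (FDR = 0.000936), the Ctbp-interacting Rbbp8 by 0.68 (FDR = 3.69e-05), and Hdac7 had a log2FC of 0.22 (FDR = 0.0154) that did not pass without CpG-stimulated replicate 3 or unstimulated replicate 2 (0.0665 and 0.0740) or without replicate 2 of both groups (0.0647).

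Ikaros proteins are controlled by phosphorylation through CK2, dephosphorylation through PP1, and, in human cells given thalidomide analogs, by the cereblon ubiquitin ligase. Of 11 genes for these enzymes 6 rose, 3 fell and 2 did not pass, at a median of 0.23. Over all tested genes 37.6% were higher and 36.7% lower. Crbn, the substrate receptor cereblon, fell from 7.79 to 5.83 log2 CPM (log2FC -1.96, standard error 0.09, FDR = 4.95e-08). The other ligase subunits Ddb1, Cul4a and Rbx1 rose by 0.64, 0.57 and 0.50 (FDR = 5.37e-05, 7.55e-05 and 6.78e-05). The PP1 catalytic genes Ppp1ca and Ppp1cb had a log2FC of -0.96 (FDR = 1.46e-05) and -0.24 (FDR = 0.0121). The latter did not pass with no filter (0.0757) or without unstimulated replicate 3 (0.0519).

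Genes known as Ikaros and Aiolos targets moved both ways. Of 15 listed, 10 were tested, 3 rose and 6 fell, at a median of -0.83, against 37.6% and 36.7% of all tested genes. Igll1, Vpreb1, Vpreb2, Dntt and Rag2, genes of B cell progenitors, were too low to test. Ccnd2, which encodes cyclin D2, had the largest rise, from 7.43 to 10.60 log2 CPM (log2FC 3.17, standard error 0.13, FDR = 4.14e-08). Myc rose by 1.05 (FDR = 7.77e-06) and Blnk, an adaptor of the B cell receptor, by 0.63 (FDR = 4.48e-06). The CDK inhibitor Cdkn1b (p27) had a log2FC of -2.54 (FDR = 4.54e-07) and Vpreb3, whose product resembles a surrogate light chain, one of -1.79 (FDR = 3.80e-06). Rag1, a recombinase gene, had one of -3.49 (FDR = 1.49e-06) and ended at -1.04 log2 CPM, under the value of 10 reads. With 10 reads' worth required in all 6 samples Rag1 was not tested, and 3 of the listed genes rose and 5 fell.

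Of 15 listed RUNX target genes of blood cells, 14 were found by symbol and 6 were tested. Of these 6, 1 rose and 5 fell, at a median of -0.82, against 37.6% and 36.7% of all tested genes. With no filter on low values 0 rose and 3 fell. With 10 reads' worth required in all 6 samples 1 rose and 4 fell. Cd79a, the signaling chain of the B cell receptor, fell from 9.94 to 8.31 log2 CPM (log2FC -1.62, standard error 0.11, FDR = 4.14e-07), and Ebf1, a B cell identity factor that acts with Runx1, had a log2FC of -1.13 (FDR = 4.88e-07). Tbx21 (T-bet), which RUNX3 partners in T cells, had a log2FC of 1.19 (FDR = 0.00208) and Csf1r, a receptor of macrophages at low levels, one of -1.61 (FDR = 0.0180). Neither passed with no filter on low values (FDR 0.0532 and 0.0949). Csf1r was tested only through its unstimulated samples, since all its CpG-stimulated values (-2.98 to -1.45 log2 CPM) were under that of 10 reads. The 5 myeloid markers in the files, Csf1r among them, summed to 3.25 to 5.5 CPM with and 3.47 to 9.31 CPM without CpG, and their part in the Csf1r value was not tested. The T cell targets Cd4, Cd8a and Bcl11b were under the limit of detection on average and were not tested.

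**Figure D4:**
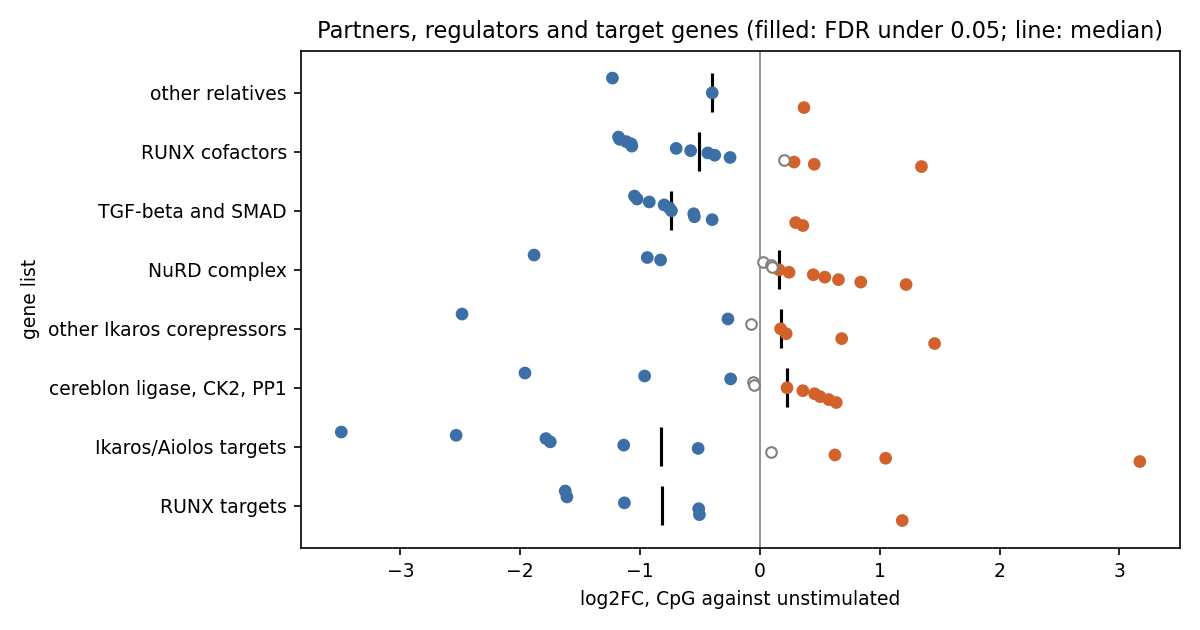
Log2FC of the tested genes in 8 lists of relatives, partners, regulators and targets (x axis), 1 point per gene, filled where FDR was under 0.05 and white where it was not, with a line at each median. RUNX cofactors, TGF-β genes and both target lists have medians between -0.83 and -0.51, and the NuRD, other corepressor and cereblon lists between 0.16 and 0.23.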

How the data were processed

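Per the study's methods, the authors aligned reads to mm10 (GRCm38) with STAR and counted them per gene with featureCounts. The submitters' processing notes give STAR 2.6.1a and Subread 2.0.1. The study's methods give voom with quantile normalization, and the deposited values are on a log2 CPM scale, not counts. The kit is described as stranded, but the strand setting of the counting is not given in the sources used here.

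Here, the 3 CpG-stimulated and 3 unstimulated samples were compared across all genes with limma 3.58.1 in R 4.3.3 (lmFit, eBayes with a trend) and Benjamini-Hochberg adjustment, over genes with more than 10 reads' worth in at least 3 samples, computed from the value of a gene without reads. Calls had an FDR under 0.05. The procedure was run on simulated data with independent normal errors and spreads taken from these data. That run left out any link between samples of the same replicate number, so it does not bear on the calls. Members, lists and tests were chosen with earlier results of these data known. Named genes were the members, Ikzf4, in each list up to 3 called genes with the largest and 3 with the smallest log2FC, and the 3 genes closest to the members that rose and fell most. Other genes given with values (Chd4, Tle1, Lck, Pstk and cell type markers) were named after their values were seen.

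Deviations from group means correlated at 0.435, 0.224 and 0.300 between samples with the same replicate number and at -0.281 to 0.0279 otherwise. A shift common to both samples of a number, as seen in low genes below, would raise the same-number values too. Pairing by mouse was therefore not tested by these correlations. Because replicate 3 of both groups came from the same male, numbers were treated as pairing the samples in a fit with a replicate block. In 8393 values the level lay below that of a gene without reads, which voom alone does not give. Read equivalents of low genes are therefore approximate. Some low genes had 1 value in both samples of a number, such as Gzma at -4.995 log2 CPM in replicate 2 and -4.746 in replicate 3. The step that made this shift by replicate number is not stated in the sources used here. Exon lengths and positions came from GENCODE M21, and promoters from RefSeq.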

Additional observations from a re-analysis of the deposited data

How the results depend on the processing

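Over 14 alternatives each, Runx1 (log2FC -2.15 to -2.02), Runx3 (1.27 to 1.40), Cbfb (0.49 to 0.56), Ikzf1 (-0.91 to -0.79) and Ikzf3 (-1.70 to -1.56) kept their direction and call, with a highest FDR of 0.00121 by limma with Benjamini-Hochberg adjustment. Ikzf5 kept its direction. Its log2FC was -0.23 to -0.16 with samples left out, and the call was lost in 5 of those fits, which have fewer samples. The replicate block changed no call of these 6 genes and gave 4390 higher and 4287 lower genes (4227 and 4123 without it). With log2(CPM + 1), 1331 genes were over a log2FC of 1 and 1351 under -1, against 1778 and 1723. The fit with no filter took in 5443 genes at the value without reads in all samples. In that fit the FDR of Runx1 was 0.000171, against 2.15e-08 with the filter. Whether the added genes account for calls lost or gained there was not tested. Leaving out replicate 2 of both groups was added after seeing the data. Low values limit what can be said of Runx2, Ikzf2 and Ikzf4.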
